A study of Mus musculus with 6 samples.

Results

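The genes described here are 8 members of the major histocompatibility complex (MHC) system of the mouse, measured in fetal testes with and without Dmrt1. They are the class II chains H2-Aa, H2-Ab1 and H2-Eb1, the class II chaperone Cd74, the class II activator Ciita, the class I heavy chains H2-K1 and H2-D1, and the class I light chain B2m. The set was chosen around the fall of H2-Aa in the null testes, so its members were chosen by the control and null intensities of H2-Aa. Every probe set whose platform annotation gives exactly 1 symbol equal to a member was taken, which made 27 probe sets of the 45101 on the array. All 27 matched the RefSeq gene of that symbol by Entrez ID. Because the choice used the comparison of null with control, the differences of the members are given as a description, with a standard error, or for members other than H2-Aa a confidence interval, and no p-value.

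Testes of mouse embryos at E13.5 were compared in 3 control and 3 Dmrt1 null samples, 1 array each. Dmrt1 encodes a DM domain transcription factor of Sertoli cells and germ cells. The controls are called wt in their titles but Dmrt1 (+/-) in their descriptions, genotype entries (there spelled Dmrt) and the design text. The nulls are Dmrt1(-,-) by title, description and design text, while their genotype entry reads Dmrt(flox/flox) and names no Cre. All 6 animals came from a line outcrossed to 129S6/SvEvTac, a background in which the mutants often form teratomas. MHC genes differ in sequence between strains, and the sources used here do not give the H2 haplotype of each animal. The labels call the samples biological replicates. Each p-value given for other genes sets the group difference against the spread between these arrays. That spread is estimated with help from the other probe sets.

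The Dmrt1 probe set read 696 to 1030 in the controls and 23.8 to 48.4 in the nulls. Array medians lay between 14.6 and 14.8 and upper quartiles between 224 and 233, so a value near 15 stands in the middle of each array. For Actb, the signal near the 3' end divided by that near the 5' end was highest in null replicate 3, at 2.75, against 1.91 to 2.15 elsewhere. The brightest listed markers were Dppa3 for germ cells, at 3050 to 4890, and Aard for Sertoli cells, at 3920 to 6050. Other markers of these cells were dimmer, such as Kit of germ cells at 155 to 327 and Amh of Sertoli cells at 133 to 166. Whole gonads were used, so fewer cells of a type and less RNA per cell cannot be told apart.

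MHC class II molecules present peptides from ingested protein to CD4 T cells. Each is a pair of an alpha and a beta chain, which is held and delivered by the invariant chain Cd74 and loaded with peptide by the H2-DM chaperone. They are characteristic of dendritic cells, B cells and activated macrophages, and their genes are switched on together by Ciita, acting with RFX and NF-Y factors bound to the promoters. Class I molecules are carried by most nucleated cells, where a heavy chain such as H2-K1 or H2-D1 pairs with B2m and presents peptides that the proteasome makes and the Tap transporter carries.

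RefSeq promoter windows (GRCm38.p6) were available for 5 of the 8 members. The bases just before the annotated start are shown for 2 class II chains and 2 class I components, because these promoters are known for a shared arrangement of an X box and a Y box. Each is written 5′ to 3′ on the gene's strand, and the capitals mark GCAAC (a core of the class II X box), TGACG (a core that CREB-type factors bind) and ATTGG (the core of the Y box, which NF-Y binds), on either strand.
H2-Aa, chr17:34287824-34287943, minus strand: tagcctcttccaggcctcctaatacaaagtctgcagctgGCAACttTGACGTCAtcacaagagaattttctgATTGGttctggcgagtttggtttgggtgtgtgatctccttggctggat
H2-Eb1, chr17:34305747-34305866, plus strand: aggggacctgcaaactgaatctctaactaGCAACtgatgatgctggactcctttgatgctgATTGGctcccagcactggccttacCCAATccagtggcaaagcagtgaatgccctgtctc
H2-D1, chr17:35262974-35263093, plus strand: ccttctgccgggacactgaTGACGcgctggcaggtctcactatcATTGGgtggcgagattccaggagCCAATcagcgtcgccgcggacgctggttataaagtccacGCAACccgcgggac
B2m, chr2:122147567-122147686, plus strand: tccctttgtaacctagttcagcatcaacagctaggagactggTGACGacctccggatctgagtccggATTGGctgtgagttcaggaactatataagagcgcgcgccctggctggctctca
In H2-Aa, 28 bases separate GCAAC from ATTGG, and in H2-Eb1 there are 27. That pair, with 25 to 35 bases between its parts, was found on either strand before the start of 0.47% of the 27025 genes with a window. In H2-Aa, 21 bases separate TGACG from ATTGG, and in H2-D1, H2-K1 and B2m there are 20. The pair of TGACG and ATTGG with 20 to 21 bases between was found in 0.163% of genes. The longer CTGATTGG stands on the gene's strand in H2-Aa and H2-Eb1, on the other strand in H2-D1, and on either strand before 4.43% of genes, whereas ATTGG alone stands before 37.5%. The 250 bases before each start were searched, and the spacings were set after these windows had been read, so the shares are a description of the letters.

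H2-Aa, the alpha chain of the I-A class II molecule, was dim in the controls and dimmer in the nulls on 3 of its 4 probe sets. The probe set with the highest mean, 1435290_x_at, read, in the order of replicates 1, 2 and 3 that is kept throughout, 33.3, 44.9 and 40.8 in the controls against 10.7, 7.66 and 7.13 in the nulls. Probe set 1452431_s_at read 27.7, 33.7 and 29.7 in the controls against 9.60, 7.80 and 7.34 in the nulls. Probe set 1438858_x_at read 26.6, 27.9 and 24.4 in the controls against 10.5, 10.4 and 13 in the nulls. On these 3 probe sets every control value lay above its array's median and every null value below it, and the groups did not overlap. The fourth, 1443783_x_at, lay at 2.34 to 2.75 on all 6 arrays.

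**Figure D1:**
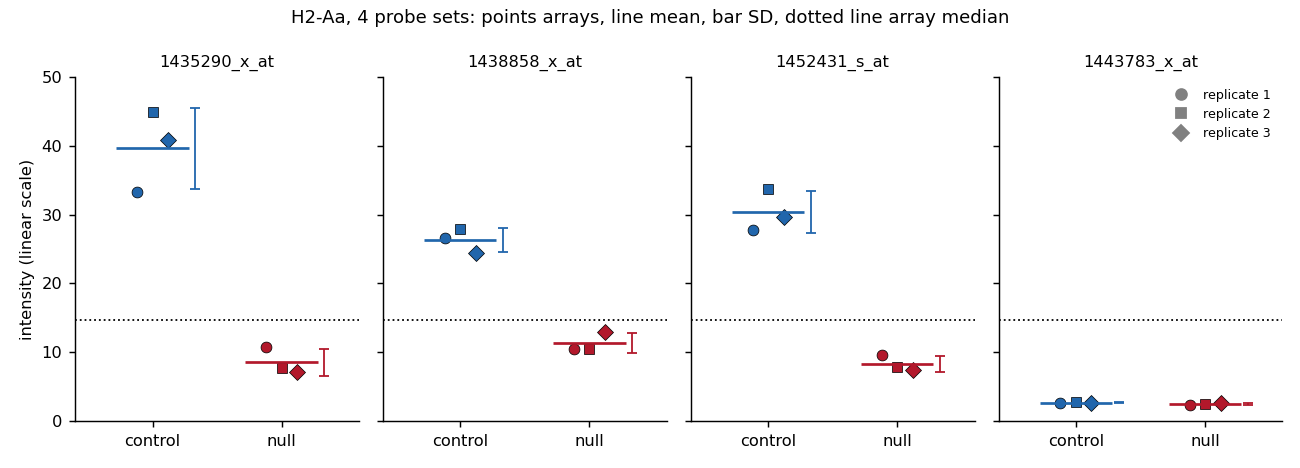
Intensity (linear scale) of the 4 H2-Aa probe sets in 3 control and 3 null testes. Points are arrays with the symbol giving the replicate, lines are means and bars are SDs (n = 3), and the dotted line is the mean of the array medians; in the first 3 panels the controls lie at 24.4 to 44.9 and the nulls at 7.13 to 13.

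The 3 probe sets gave different sizes for the H2-Aa difference. On 1435290_x_at the mean was 39.7 ± 5.88 in the controls and 8.50 ± 1.93 in the nulls (SD, n = 3 each), and the ratio of the geometric means as deposited was 4.71. On 1452431_s_at it was 30.4 ± 3.06 and 8.25 ± 1.19 (SD, n = 3 each), and that ratio was 3.69. On 1438858_x_at it was 26.3 ± 1.77 and 11.3 ± 1.47 (SD, n = 3 each), and that ratio was 2.34. The null means lie below the array medians, and the ratios hold for the background correction as deposited. As log2 differences of null minus control these are -2.24 (SE 0.21), -1.89 (SE 0.16) and -1.22 (SE 0.17), and the dimmest probe set is at -0.12 (SE 0.058). Each of the 4 names ends in _x_at or _s_at, types that can bind related transcripts.

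With 16 added to every intensity the log2 differences became -1.18 on 1435290_x_at, -0.93 on 1452431_s_at and -0.63 on 1438858_x_at. With single arrays left out and nothing added they lay between -2.41 and -2.12, between -2.00 and -1.81 and between -1.33 and -1.17, in the same order. Control replicate 3 and null replicate 2 share a leading number in their descriptions, whose meaning is not given, and on 1435290_x_at they read 40.8 and 7.66.

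The partners of H2-Aa did not show a difference of that size. H2-Ab1 encodes the beta chain that pairs with the H2-Aa product in I-A. Its probe set with the highest mean, 1450648_s_at, read 12.1, 11.7 and 12.6 in the controls against 10.8, 11.1 and 10.1 in the nulls. All 6 values lay below the array medians, and the nulls lay below the controls without overlap. The log2 difference was -0.19 (95% confidence interval -0.46 to 0.090). The other H2-Ab1 probe sets, 1425477_x_at and 1451721_a_at, had overlapping groups and differences of 0.042 and -0.00083. An intensity this low does not show how a transcript close to background changed.

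H2-Eb1 encodes the beta chain of I-E, whose alpha chain gene is listed as a transcribed pseudogene, H2-Ea, in this RefSeq assembly. Its probe set read 7.33, 10.7 and 10.2 in the controls against 10.6, 7.80 and 8.92 in the nulls. The nulls lay within the range of the controls, with a difference of -0.039 (95% confidence interval -0.46 to 0.38), and all 6 values lay below the array medians.

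Cd74, the invariant chain that occupies the peptide groove of new class II dimers, read 12.2, 18.5 and 15.2 in the controls against 16.4, 13.8 and 12.7 in the nulls. The groups overlapped, 3 of the 6 values lay above the array medians, and the difference was -0.085 (95% confidence interval -0.52 to 0.35). Cd74 and H2-Eb1 were highest in the same array of each group, control replicate 2 and null replicate 1, and lowest among the controls in replicate 1.

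Ciita, the coactivator that class II transcription depends on, was near background on its 3 probe sets. The values ran from 3.49 to 6.96, all below the array medians. The probe set 1447075_at read 6.42, 6.96 and 5.85 in the controls against 6.10, 6.49 and 6.76 in the nulls. The groups overlapped on each of the 3, and the differences lay between -0.020 and 0.077.

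**Figure D2:**
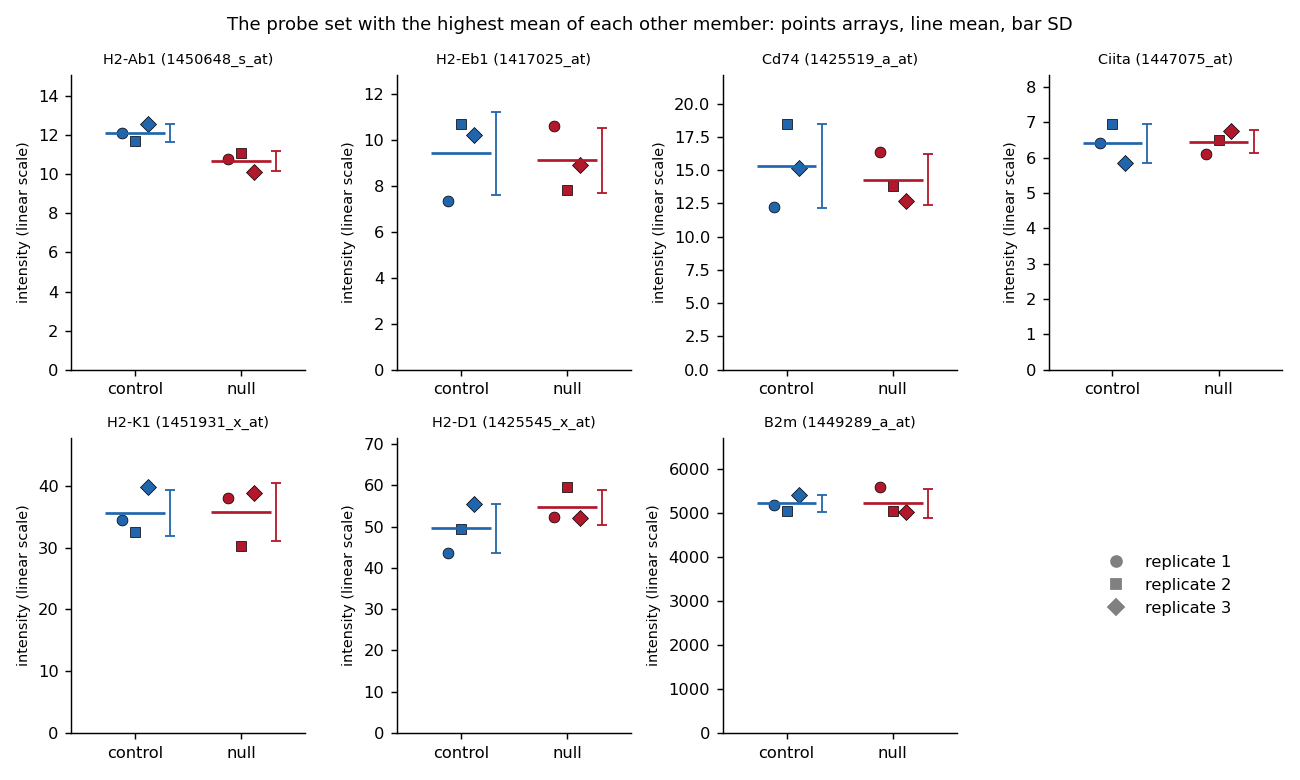
Intensity (linear scale, each axis from 0) in 3 control and 3 null testes of the probe set with the highest mean for each member other than H2-Aa. Points are arrays, lines are means and bars are SDs (n = 3); the groups overlap in every panel except H2-Ab1, where the controls lie at 11.7 to 12.6 and the nulls at 10.1 to 11.1.

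The class I light chain was abundant and steady. B2m, which pairs with class I heavy chains, read 5190, 5050 and 5420 in the controls against 5590, 5040 and 5020 in the nulls on 1449289_a_at. The difference was -0.0021 (95% confidence interval -0.14 to 0.13). The other probe set, 1452428_a_at, read 2640 to 2790 in the controls and 2660 to 3210 in the nulls, a difference of 0.075 (95% confidence interval -0.12 to 0.27). Null replicate 1 was the highest array on both, and the groups overlapped on both.

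The heavy chain H2-K1 had 4 probe sets, all of the _x_at type, and its differences lay between -0.16 and 0.065. Probe set 1451931_x_at read 34.5, 32.5 and 39.8 in the controls against 38.0, 30.3 and 38.8 in the nulls, a difference of 0.00052 (95% confidence interval -0.39 to 0.39). Probe set 1425336_x_at varied far more within the groups. It read 23, 45.1 and 36.3 in the controls against 42.4, 22 and 29.0 in the nulls. Its highest arrays were control replicate 2 and null replicate 1, as for Cd74 and H2-Eb1, and its difference was -0.16 (95% confidence interval -0.88 to 0.57). These 2 probe sets of the same gene ordered the arrays differently, and the groups overlapped on both.

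The heavy chain H2-D1 had 9 probe sets, 7 of them below the array medians on all 6 arrays. Probe set 1425545_x_at read 43.7, 49.5 and 55.6 in the controls against 52.3, 59.6 and 52.1 in the nulls, a difference of 0.14 (95% confidence interval -0.22 to 0.51). Probe set 1451784_x_at read 28.5 to 40.2 in the controls and 28.4 to 36.9 in the nulls, a difference of -0.092 (95% confidence interval -0.53 to 0.35). The differences over all 9 ran from -0.15 to 0.14. The groups did not overlap on 2 dim H2-D1 probe sets, with the nulls lower on 1427651_x_at (-0.15) and higher on 1451683_x_at (0.089). H2-K1 and H2-D1 are near-identical paralogs in parts of their sequence, and how the array splits their transcripts is uncertain.

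Over the whole set, 15 probe sets were lower and 12 higher in the nulls. Apart from H2-Aa there were 11 lower and 12 higher, with differences from -0.19 to 0.14. Among these 23, the nulls lay below the controls without overlap on 2, where 5.25% of all probe sets did so and 6.06% of those tested. With the 4 of H2-Aa, whose values were used to choose the set, there were 6. The nulls lay above the controls on 1 of the 23, where 5.77% of all probe sets did so and 6.73% of those tested. A filter on low values, a mean log2 of at least 4, left 8 of the 27 in the test. These were 2 each of H2-Aa, H2-K1, H2-D1 and B2m, so H2-Ab1, H2-Eb1, Cd74 and Ciita were not tested at all. The 2 H2-Aa probe sets passed only through the controls, with mean log2 values of 4.18 and 4.10. Their null values all lay under a log2 of 4. Of the 8, 1 was called lower by limma at an adjusted p under 0.05, the H2-Aa probe set 1435290_x_at, against 0.0272% of the 22082 probe sets tested. That call belongs to the choice of the set and nothing is read from it. It was lost when any array other than null replicate 1 was left out. Running limma without the intensity trend, or with the replicate numbers as a block, also lost it. A filter at a mean log2 of 6 removed the probe set.

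**Figure D3:**
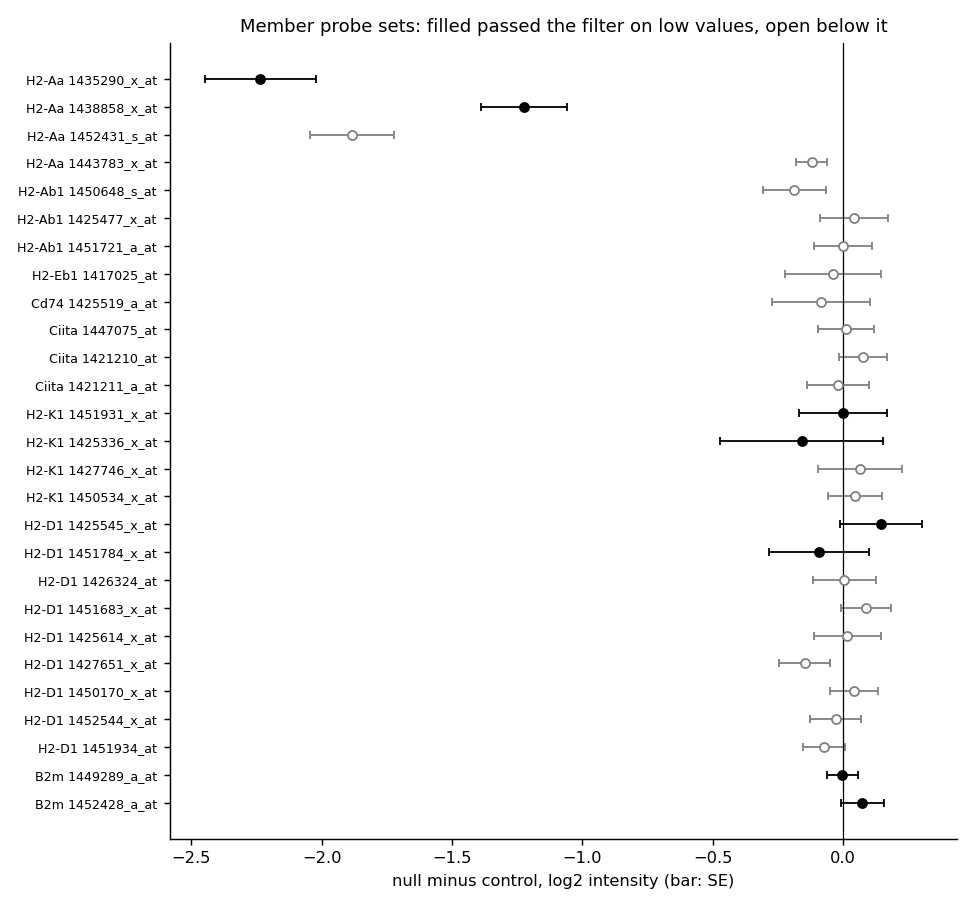
Difference of null minus control in log2 intensity for the 27 member probe sets, with standard errors from the limma fit (n = 3 per group); filled points passed the filter on low values and open points did not. The 3 upper H2-Aa probe sets lie at -2.24 to -1.22 and all other probe sets at -0.19 to 0.14.

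H2-Aa lies between H2-Ab1 and H2-Eb1 in the RefSeq gene order of the H2 complex. Of the 20 genes on each side of it, 11 were tested, 15 lay below the filter and 14 had no probe set with a single symbol. None of the 11 was called (limma, 0 at an adjusted p under 0.05, and 1 at an unadjusted p under 0.05). Of all 11874 tested genes, 0.0505% were called in either direction and 6.44% had an unadjusted p under 0.05, shares against which such counts in the lists below stand. Among the 11, 2 were lower and 9 higher, with a median difference of 0.18 against 0.025 over all tested genes. Notch4, an endothelial Notch receptor, had the largest difference at 0.64 (SE 0.25, limma adjusted p = 0.773), and the retinoid receptor Rxrb was at 0.24. The 15 below the filter, among them the members H2-Ab1 and H2-Eb1 and the genes H2-Ob, Tap1, Tap2, Psmb8 and Psmb9, had differences of -0.19 to 0.15. The median moved to 0.12 with 16 added and to 0.089 without control replicate 1.

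**Figure D4:**
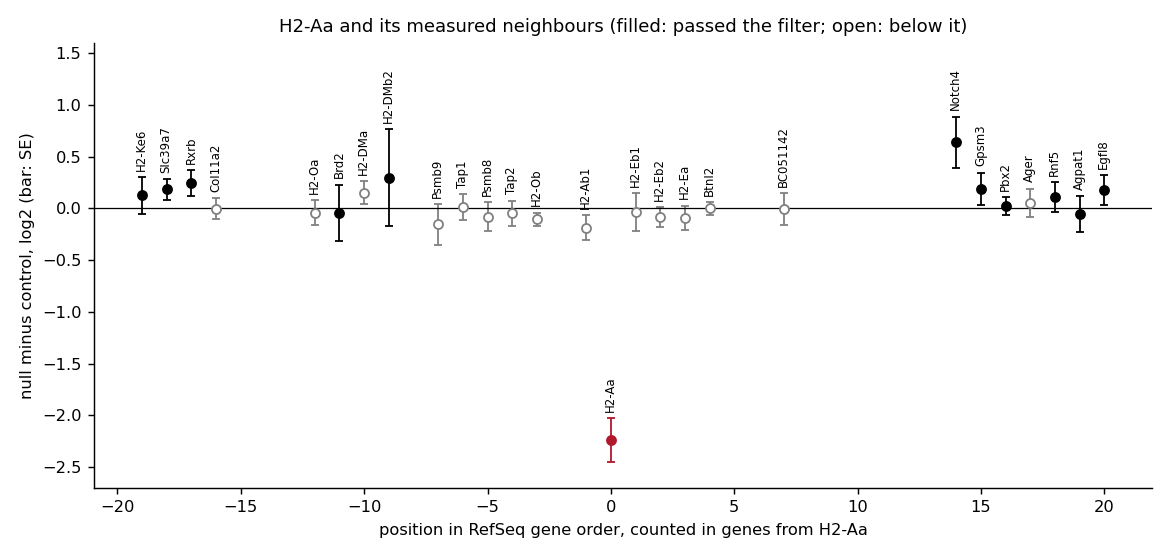
Difference of null minus control in log2 intensity (bars, SE) for H2-Aa at position 0 and its measured neighbours, ordered by RefSeq gene order and counted in genes. H2-Aa lies at -2.24; the tested neighbours (filled) lie at -0.054 to 0.64 and those below the filter (open) at -0.19 to 0.15.

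Other genes of class II assembly were counted from a list that holds further chains, loading factors, proteases and co-stimulators. Of 16 genes listed, 8 were tested and none was called by limma in either direction, a count of 0, with 1 at an unadjusted p under 0.05. The 8 were 4 lower and 4 higher, with a median of -0.019. Lgmn, an asparaginyl endopeptidase of lysosomes that can cut the invariant chain, read 173, 182 and 146 in the controls against 144, 110 and 77.1 in the nulls. Its groups did not overlap, and its difference was -0.64 (SE 0.23, limma adjusted p = 0.773). H2-DMb2, a beta chain of the peptide-loading chaperone, was at 0.30 with overlapping groups, and Ctsl, the brightest gene of the list and a lysosomal protease, at -0.051. Chains below the filter were H2-Ea at 4.98 to 6.41, H2-Eb2 at 3.79 to 4.76 and H2-DMa at 6.87 to 8.66.

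Regulators of class II transcription were mostly bright. Of 15 listed, 12 were tested, with 6 lower, 6 higher, a median of -0.0094 and 0 called by limma (2 at an unadjusted p under 0.05, where 6.44% of all tested genes had one). Rfx5, the RFX subunit that anchors the complex on the X box, read 540, 487 and 515 in the controls against 383, 457 and 380 in the nulls. That is a difference of -0.34 (SE 0.12, limma adjusted p = 0.773) with no overlap. The acetyltransferase Crebbp, the brightest of the list, was at -0.18 without overlap, and Irf8, a factor of myeloid cells, at 0.51 with overlap. Spi1, which defines myeloid cells, lay at 10.5 to 13.2, and Nlrc5, the class I counterpart of Ciita, at 3.57 to 5.71, both below the filter.

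Genes that make and load class I peptides had 7 of 8 tested members lower and a median of -0.11, with 0 called by limma and 0 at an unadjusted p under 0.05. Among all tested genes 43.7% were lower. Leaving out an array moved the median to -0.046 for null replicate 3, -0.061 for control replicate 2 and -0.17 for null replicate 1. Tapbp, the tapasin bridge between Tap and class I, was at -0.27 (limma adjusted p = 0.774), and its relative Tapbpl at -0.21. Calr, the brightest and a chaperone of the endoplasmic reticulum, was at -0.050. The Tap transporter and the immunoproteasome were near background, with Tap1 at 8.74 to 10.6, Tap2 at 7.46 to 9.02, Psmb8 at 7.93 to 10.6 and Psmb9 at 5.97 to 10.4.

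Of 24 other class I and class I-like chains listed, 13 had no probe set with a single symbol and 5 were tested. Limma called 0 of them, with 0 at an unadjusted p under 0.05. They were 1 lower and 4 higher with a median of 0.12. Leaving out an array moved that median to 0.016 for control replicate 2, 0.063 for control replicate 1, 0.068 for null replicate 1 and 0.21 for null replicate 2. Mr1, which presents vitamin metabolites, was at 0.16, Hfe, a regulator of iron uptake, at 0.16, and the Fc receptor Fcgrt, the brightest, at 0.046. H2-Ke6, counted in this list for its name, encodes a hydroxysteroid dehydrogenase and no MHC chain. It is 1 of the 4 higher, and its own difference, 0.12, is the list median.

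Interferon gamma induces Ciita and class I genes in many cells. Of 23 genes of its pathway and targets, 14 were tested, 6 lower and 8 higher, with a median of 0.088, 0 called by limma and 0 at an unadjusted p under 0.05. The kinase Jak2, the brightest, was at -0.076, the guanylate binding protein Gbp2 at 0.24 and Stat2 at -0.18. Ifng itself lay at 3.93 to 4.56 and the chemokine Cxcl9 at 4.82 to 5.43, below the filter on all 6 arrays.

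Markers of cells that can carry class II were set beside the H2-Aa values. Macrophage markers were lower at 16 of 18 tested members, with a median of -0.25, 0 called by limma and 2 at an unadjusted p under 0.05 (6.44% of all tested genes had one). Among all tested genes 43.7% were lower, and the macrophage median was -0.13 without control replicate 3. The nulls lay below the controls without overlap at 3 of the 18, against 632 of all 11874 tested genes. They lay above the controls at 0 of the 18, against 926 of all tested genes. The summed intensity of the 21 macrophage markers was 3807 to 4841 in the controls and 3415 to 3711 in the nulls. That separation rested on Mrc1: without it, a check chosen after seeing the data, the sums were 3165 to 3873 and 2910 to 3178 and overlapped. Mrc1, the mannose receptor, read 692, 642 and 968 in the controls against 533, 505 and 522 in the nulls, a difference of -0.54 (SE 0.16, limma adjusted p = 0.773). Lyve1, a hyaluronan receptor of some tissue macrophages, was at -0.51 with overlapping groups, and C1qb, the brightest, at -0.15. The part of these cells in the H2-Aa difference was not tested.

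Dendritic cell, B cell and T cell markers were mostly near background, though none was listed at 0. Of 10 dendritic cell markers 3 were tested, with a median of 0.048, 0 called by limma and 1 at an unadjusted p under 0.05. That was Ly75, an endocytic receptor, at -0.41 with no overlap (limma adjusted p = 0.773). Zbtb46, the brightest, was at 0.068. Itgax lay at 3.74 to 5.20, Flt3 at 5.42 to 7.14 and Xcr1 at 3.46 to 4.00. The summed intensity of dendritic cell markers, carried mainly by Zbtb46, was 2109 to 3121 in the controls and 2239 to 3176 in the nulls. Of 9 B cell markers 2 were tested and 0 called by limma, with Ebf1, which stromal cells also express, at 0.12 and Cd79b at -0.065. Ms4a1 lay at 3.05 to 4.05 and Cd79a at 5.00 to 6.57. The B cell sum, carried mainly by Ebf1, was 247 to 785 in the controls and 323 to 673 in the nulls. Of 9 T cell and innate lymphoid markers only Thy1 was tested, at 0.25 with the nulls higher without overlap, and Cd3e lay at 4.61 to 5.23.

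**Figure D5:**
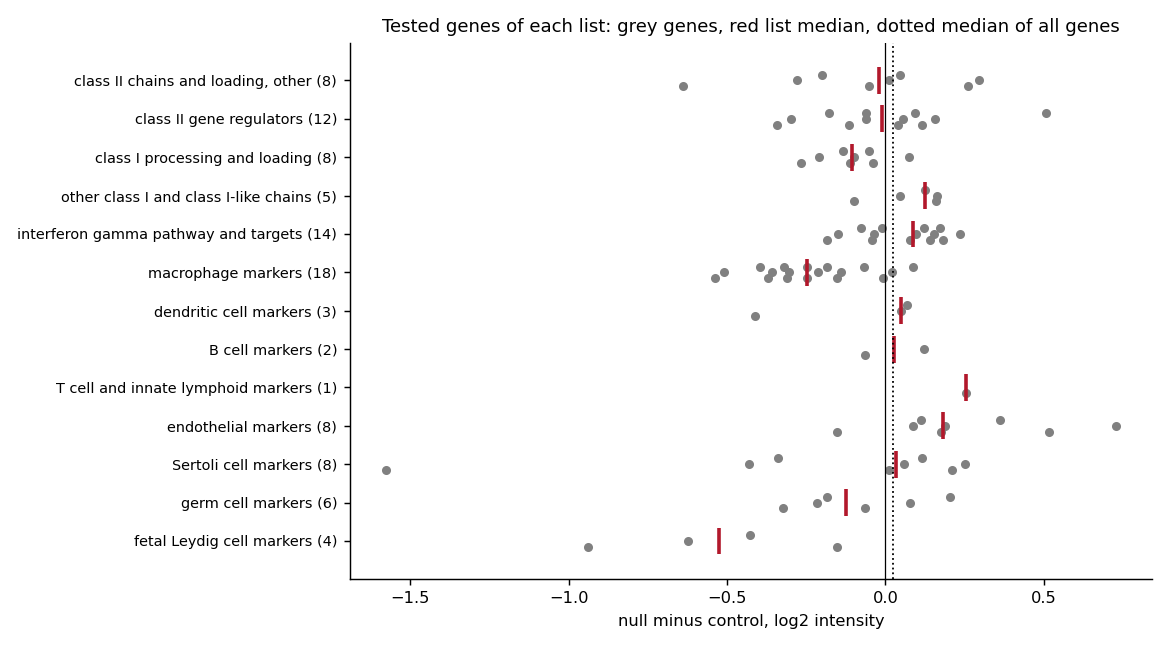
Difference of null minus control in log2 intensity for the tested genes of each list (grey points, number in brackets), with the list median in red and the median of all tested genes, 0.025, as a dotted line. Macrophage markers have a median of -0.25, and the Sertoli point at -1.58 is Cst9, the only called gene of these lists.

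The resident cells of the testis were measured beside these. Among 8 Sertoli cell markers, Cst9, a cystatin-related gene, fell by 1.58 (SE 0.13, limma adjusted p = 0.0271), and Aard was at -0.43 without overlap. The Cst9 call was lost without control replicate 1, 2 or 3, without null replicate 3, without the intensity trend and with the replicate numbers as a block. Of the 8, 3 were lower and 5 higher. Sox9 was also lower, at -0.34 with overlapping groups, and the higher ones included Gata4 at 0.25 and Dhh at 0.21. The list median was 0.035, and its summed intensity was 19049 to 20520 in the controls and 16436 to 17758 in the nulls. Cst9, which is part of that sum, read 3040, 3460 and 2940 in the controls against 1180, 860 and 1150 in the nulls. The separation of the sums rests on it. Germ cell markers were 4 lower and 2 higher with a median of -0.12, with Mael, a piRNA factor, at -0.32, Ddx4, a germ cell helicase, at -0.22 and Pou5f1, a pluripotency factor, at 0.20. Fetal Leydig markers were lower at all 4 tested genes with a median of -0.53, with the steroidogenic enzymes Cyp11a1 at -0.94 and Cyp17a1 at -0.62. Endothelial markers were 1 lower and 7 higher with a median of 0.18, with Cldn5, a tight junction protein, at 0.73 and Tie1, a receptor kinase, at 0.52. Limma called 0 germ cell, Leydig or endothelial markers, and 0 of them had an unadjusted p under 0.05. Without control replicate 2 the endothelial median was -0.23 and the germ cell median 0.055, and without null replicate 3 the Leydig median was -0.0015.

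These lists varied within the groups in ways that some members shared. The endothelial sialomucin Emcn read 1470, 391 and 1140 in the controls against 602, 1320 and 1190 in the nulls. Control replicate 2 and null replicate 1, the arrays where Emcn was lowest, were those where Cd74, H2-Eb1 and H2-K1 on 1425336_x_at were highest. The part of cell makeup in the values of these 3 genes was not tested.

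Profiles over the 6 arrays were compared by the root mean square distance between log2 values, each centred on its own mean. The tested genes nearest to H2-Aa on 1435290_x_at were Jakmip2 at a distance of 0.27, the HMG-box factor Tox2 at 0.37, the GDNF receptor Ret at 0.38, Cst9 at 0.39 and Islr2 at 0.39. All 5 were lower in the nulls, by 1.58 to 2.38 on the log2 scale, and H2-Aa was chosen for that fall. The genes nearest to Cd74 were Sugt1 at 0.026, Dppa3 at 0.029, and Ankrd37, Spice1 and Enpp4 at 0.036 to 0.039. Dppa3, a maternal and germ cell chromatin factor, read 3050, 4890 and 3890 in the controls against 4190, 3630 and 3340 in the nulls. Like Cd74, it was highest in control replicate 2 and null replicate 1.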

How the data were processed

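The authors made the deposited linear intensities with GCRMA, per the submitters' processing notes. Its version and the genome build are not given in the sources used here. Per the labels' protocols, RNA was amplified and labelled with a NuGen kit.

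Intensities were taken to log2. Probe sets with a mean of at least 4 were fitted with limma 3.58.1 in R 4.3.3, by group alone, with an intensity trend, two-sided tests and Benjamini-Hochberg adjustment over all 22082. Errors of members below that filter come from the same fit without it. For lists and neighbours each gene was represented by its probe set with the highest mean. From each list the called genes, or else the brightest and those with the largest difference, are named; markers near background were added. The members and lists were chosen with earlier results of these data known. Replicate numbers were not used to pair the samples in the main fit. The number of arrays limits the precision.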

Additional observations from a re-analysis of the deposited data

How the results depend on the processing

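Each result was recomputed with other filters, normalizations, variance priors, an added constant, a replicate block and single arrays left out. Limma called 6 probe sets in all, and 0 to 5 with single arrays left out, 1 without the intensity trend and 0 with the replicate block. Same-numbered control and null arrays had deviations from their group means correlated at -0.59, -0.34 and 0.14. Differently numbered pairs had correlations from -0.40 to 0.58. Deviations within a group sum to 0, so these values cannot tell whether the arrays were paired. Cst9, the called gene of the lists, was not called with the block or without the trend, a count of 0 in each, and 0 to 1 were called with single arrays left out. Of the member probe sets 15 were lower, and 10 to 19 with single arrays left out. Under a filter at a mean log2 of 6, which kept only B2m, 1 was lower. Without probe sets of the _x_at, _s_at and _a_at types, 2 were lower. The H2-Aa differences of -2.24 and -1.22 became -1.18 and -0.63 with 16 added, and that of 1452431_s_at went from -1.89 to -0.93. The median of the genes next to H2-Aa was 0.12 with 16 added and 0.12 with the filter at 6, and 0.089 to 0.17 with single arrays left out. The dendritic cell median was -0.17 with the filter at 6 and -0.092 to 0.13 with single arrays left out, and the T cell median was -0.075 with no filter. With single arrays left out the median ran from -0.14 to 0.022 for class II assembly genes, from -0.069 to 0.0040 for class II regulators from -0.016 to 0.16 for the interferon gamma list, from -0.29 to -0.13 for macrophage markers, from -0.27 to 0.26 for B cell markers and from 0.0040 to 0.050 for Sertoli markers. The cause of these shifts was not tested. Of 327 recomputed differences of the other 25 member probe sets, 322 moved by less than the spread within groups. A filter, a variance prior or the replicate block leaves a difference as it is, and leaving out a single array cannot move it by that spread. The count was thus largely fixed in advance and is no test of stability. The 5 that moved did so with 16 added. Low signal over background limits H2-Ab1, H2-Eb1, Cd74 and Ciita.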

Other observations

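The annotation gave several symbols to 3 probe sets that include a member, and these were left out of the set. The probe set of H2-K1 and H2-D1 read 9.20, 11.7 and 10.2 in the controls against 10.3, 7.63 and 9.15 in the nulls (replicates 1, 2 and 3 each). The others, shared with H2-Q2 and H2-Q5, lay at 6.40 to 8.33 and 2.97 to 4.32, and the groups overlapped on all 3.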
